A study of Mus musculus with 18 samples.

Results

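The cytosolic ribosomal protein genes are the genes that encode the protein parts of the ribosome working in the cytoplasm. Members were taken by name: Rpsa, the Rps and Rpl genes with a number, and Rplp0, Rplp1 and Rplp2, without the S6 kinases and without rows marked as pseudogenes. This gave 84 of the 18585 genes in the table, 33 of the small (40S) subunit and 51 of the large (60S) subunit. The names also bring in 7 paralog-type members (Rpl3l, Rpl7l1, Rpl10l, Rpl22l1, Rpl39l, Rps27l and Rps4y2, the gene that RefSeq lists as Rps4l).

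RNA came from forepaws of C57BL/6 mice and was measured with CEL-seq, a method that counts RNAs by a tag next to their 3' end. The 18 libraries were 5 of wild-type (WT) mice with arthritis, 4 of WT controls, 5 of mice lacking Sema3b (Sema3b-/-) with arthritis, and 4 of Sema3b-/- controls. Sema3b encodes a secreted semaphorin. The labels name neither the arthritis model nor the ages of the mice, and each title carries its own number, read here as that of an animal, so the p-values rest on the spread between the animals of these groups.

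A ribosome is built from ribosomal RNA and a fixed set of proteins, most of them needed in equal numbers. Cells raise or lower these genes together when they grow or divide. Their mRNAs begin with a C and a run of pyrimidines, the terminal oligopyrimidine (TOP) tract. The mTOR kinase acts through this tract, in part by way of the binding protein Larp1, to set how much of each mRNA is translated, and Myc drives transcription of ribosomal protein and ribosome assembly genes.

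A pyrimidine run near the start site was present in most member promoters with an entry. A run of at least 7 C or T bases opening with C was searched on the strand of the gene, from 30 bases before to 50 bases after the annotated start in RefSeq (GRCm38.p6). It was found in 54 of 75 promoters of the 63 members that had an entry (72%), and in 33.4% of all 32851 promoters. The 21 other members had no entry. The lines below give 30 bases at the run, or at the start where there is none, for 5 members that were higher in arthritis, then for Rplp0 and Rpl3l, which were not called higher, read 5' to 3' with the run in capitals.
Rps12, chr10:23787185-23787214, minus strand: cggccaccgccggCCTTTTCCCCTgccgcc
Rps6, chr4:86857343-86857372, minus strand: cgggCCTCTTTTTCgtgacgcctcccaggc
Rpl39, chrX:37085198-37085227, minus strand: gcctctagcgaCTTCTTCTaatcgcgttct
Rpl28, chr7:4792960-4792989, plus strand: tgtCTCTCTTTCCgtctccggccgccatag
Rpl36a, chrX:134585674-134585703, plus strand: gctctagCCTCTCTCTTTCCgagctgctag
Rplp0, chr5:115559462-115559491, plus strand: ttcgaggaccgcctggttctcctataaaag
Rpl3l, chr17:24727846-24727875, plus strand: tggtggggaggCCCCTTCCTaacctgcagg
The run began 1 base before the annotated start in Rps6 and 2 bases before it in Rpl28, and 6 bases after it in Rpl39, 8 in Rps12, 27 in Rpl36a and 31 in Rpl3l. The windows of Rpl36a and Rpl3l lie after the start and do not hold it. Rplp0 had no such run in the searched window. Other members without it, such as Rpl22, Rpsa and Rps3a1, were called higher for the mean of both genotypes. The printed genes were picked by hand and do not show whether the run goes with the change in arthritis. A match is a description of these letters and is not a mapped start of the RNA. The motif CACGTG, which reads the same on both strands and is bound by Myc, was in 10.7% of member promoters and in 7.15% of all promoters over the whole entry, from 250 bases before to 50 after the start.

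Libraries held 1732783 to 19464892 reads, recovered from values that the authors had divided by a size factor for each library (normalized counts). Sema3b had at most 3.49 normalized counts in Sema3b-/- arthritis libraries and 7.20 in Sema3b-/- controls, against at least 23.7 in WT arthritis libraries and 44.2 in WT controls. Sex, as judged by Xist and Y-chromosome transcripts, was male in 4 of 5 WT arthritis libraries and female in all 4 WT controls. It was female in 4 of 5 Sema3b-/- arthritis libraries, and 2 of 4 Sema3b-/- controls were of each sex. Sex thus went largely with arthritis in WT and with genotype among arthritis libraries, and cannot be fully told apart from them. Control titles open with MI, 7 arthritis titles open with Joint and the other 3 carry RA in its place, so whatever these words stand for cannot be told apart from arthritis. In the deposited table the column of 1 arthritis animal (Sema3b-/-, replicate 5) carries the ending Ct, although title and treatment label say arthritis. It was used as labelled, and without it 50 members were called in WT, 43 in Sema3b-/- mice and 66 for the mean of both genotypes, against 53, 54 and 67 with it. Mitochondrial transcripts took 18.3 to 39.4% of counts in WT arthritis libraries and 19.9 to 21.1% in WT controls. They took 15.7 to 24.1% in Sema3b-/- arthritis libraries and 16.0 to 23.0% in Sema3b-/- controls.

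Ribosomal protein genes took a larger share of all counts in arthritis. The 84 members together took 9.31% ± 1.43 of normalized counts in WT arthritis libraries and 7.64% ± 0.134 in WT controls (SD, n = 5 and n = 4). The share was 10.02% ± 0.353 in Sema3b-/- arthritis libraries and 6.91% ± 0.770 in Sema3b-/- controls. The Sema3b-/- groups did not overlap, with 9.65 to 10.5% against 5.97 to 7.81%. The WT groups did, because WT arthritis replicate 1, the library with the highest mitochondrial share, was at 7.16% and the other arthritis libraries of this genotype at 8.77% or more, against 7.501 to 7.77% in controls. With mitochondrial transcripts left out of the total, the share was 11.6 to 14.1% in WT arthritis libraries and 9.37 to 9.84% in WT controls, with no overlap. On that scale it was 12.3 to 12.7% in Sema3b-/- arthritis libraries and 7.23 to 9.67% in Sema3b-/- controls. No p is given for the sum over members.

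**Figure D1:**
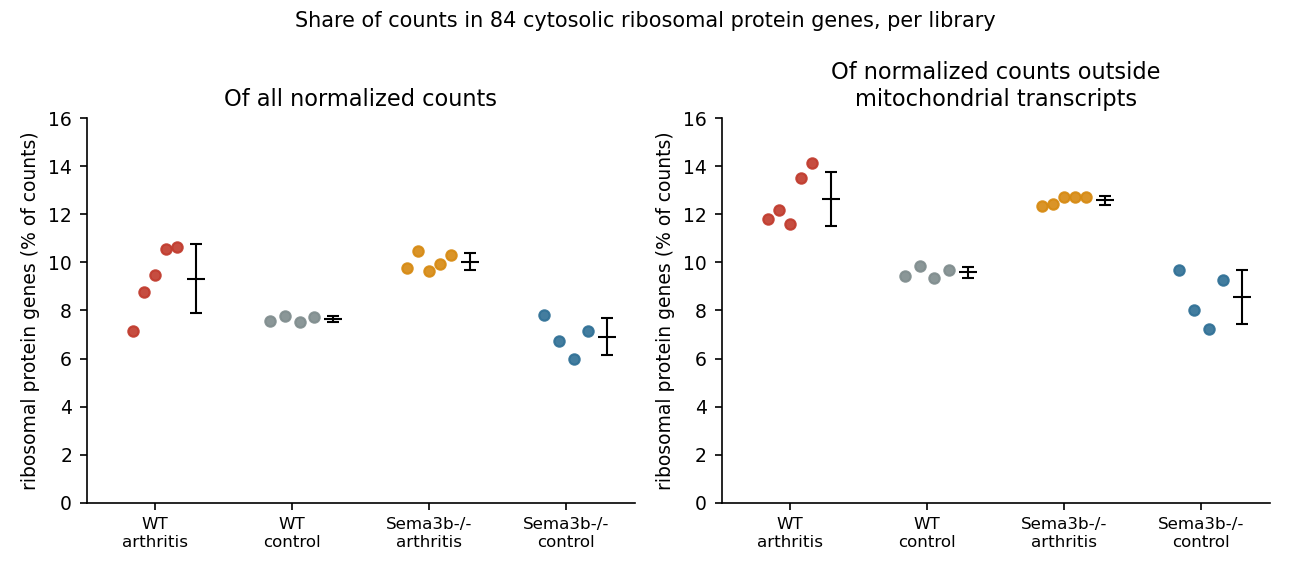
Share of normalized counts in the 84 members (vertical axis, %), one point per library, of all counts (left) and of counts outside mitochondrial transcripts (right). Bars are means with SD. Arthritis libraries lie above control libraries in both genotypes on the right. On the left WT arthritis replicate 1 (7.16%) falls below every WT control.

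Most single members were higher in arthritis. A gene was tested where at least 4 libraries reached a value of 10, which 80 members did. The 4 others, Rpl10l, Rpl22l1, Rpl26 and Rps27, had at most 6.97 normalized counts in any library. With limma on log2(value + 1) and Benjamini-Hochberg adjustment over 13809 genes, 53 of 80 members were higher in WT arthritis at an adjusted p under 0.05, against 2.64% of all tested genes called higher. In Sema3b-/- mice 54 of 80 were higher, against 6.84% of all tested genes. No member was called lower, against 1.58% of all tested genes in WT and 5.55% in Sema3b-/- mice, and 4.21% and 12.4% of all tested genes were called in either direction. For the mean of both genotypes 67 of 80 were higher, against 12.6% of all tested genes. Of the 80, 49 were called in both genotypes, 4 in WT alone, 5 in Sema3b-/- alone and 22 in neither, which is no test of a difference between genotypes.

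The changes were small and alike in size. The median log2 fold change was 0.49 in WT (1.41-fold) and 0.46 in Sema3b-/- mice (1.38-fold), where the median over all tested genes was -0.02 and -0.01. The log2 fold change was above 0 for 78 of 80 members in WT and for 77 of 80 in Sema3b-/- mice. Every arthritis library lay above every control of its genotype for 61 members in WT, against 5.82% of all tested genes, and for 50 in Sema3b-/- mice, against 7.13%. For 41 members all 10 arthritis libraries lay above all 8 controls, against 1.33% of all tested genes. The 53 members called in WT made up 14.6% of the 364 genes called higher there, and the 54 called in Sema3b-/- mice made up 5.72% of the 944 called higher there.

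The size of the WT count depended on single libraries and on covariates. It was 30 without WT control replicate 1, 26 without WT control replicate 3, 32 without WT arthritis replicate 4 and 33 without WT arthritis replicate 5. It was 27 with sex as a term in the fit, 33 with the replicate number as a block, 31 with CPM (reads scaled to each library's total) without mitochondrial transcripts, and 25 with the WT arthritis libraries titled Joint alone. The Sema3b-/- count was 33 without Sema3b-/- control replicate 3, 32 with only the compared groups in the fit, and 30 with arthritis libraries titled Joint alone. The count for the mean of both genotypes was between 63 and 69 in the other settings that could be run on it and between 66 and 70 when each library was left out in turn.

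In the table deposited by the authors, with their own adjusted p under 0.05, 50 of 84 members were higher in WT arthritis, against 1.88% of all genes. The same source had 41 members higher in Sema3b-/- arthritis, by the authors' deposited table, against 2.89% of all genes.

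**Figure D2:**
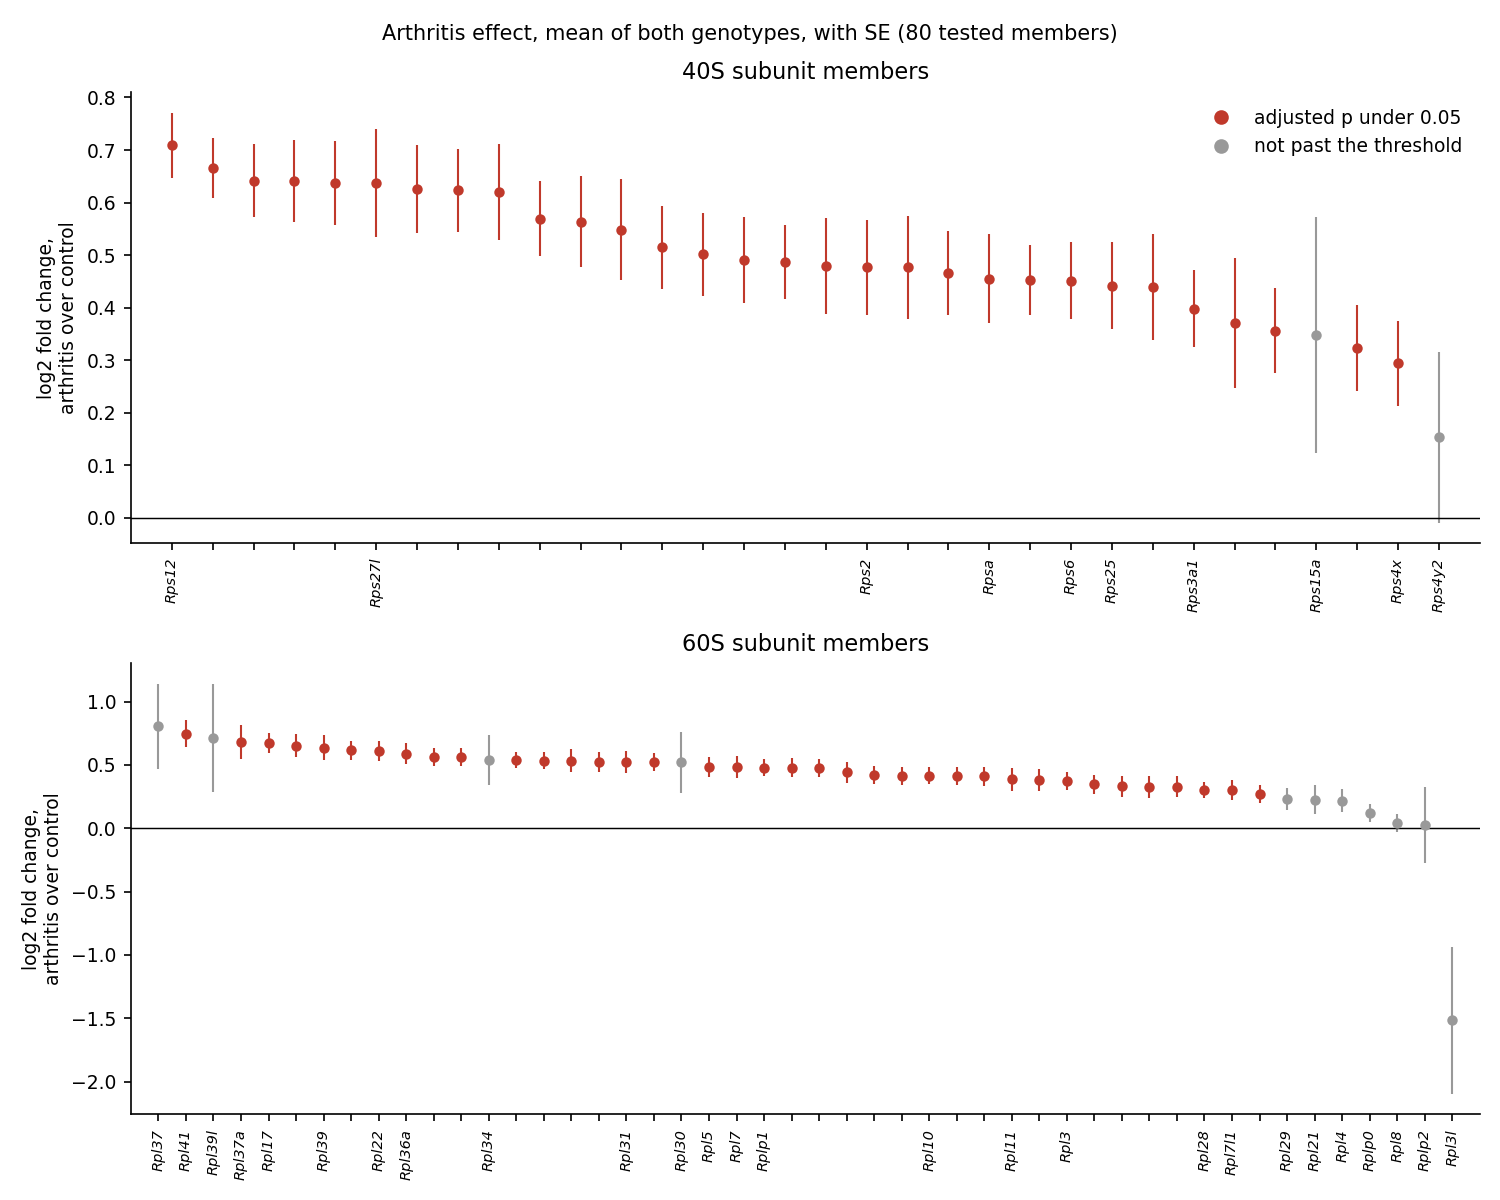
Log2 fold change of each tested member, arthritis over control, mean of both genotypes (vertical axis), with SE from the limma fit. The 40S members are above and the 60S members below, each ranked from high to low, with labels for the members described in the text. Red points passed an adjusted p of 0.05 (30 of 32 and 37 of 48) and grey points did not. In this comparison 12.6% of all tested genes were called higher. Most members lie between 0.3 and 0.7, and Rpl3l lies apart at -1.52.

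Among the members of the 40S subunit, on which the mRNA is read, 25 of 32 were higher in WT arthritis. In Sema3b-/- arthritis 25 of 32 were higher, and the medians were 0.51 and 0.50. Of all tested genes 2.64% and 6.84% were called higher in these comparisons. Rps12, a protein near the beak of the small subunit, had 15788, 14882, 14883, 17486 and 17087 normalized counts in WT arthritis libraries, against 8857, 10032, 9228 and 9753 in WT controls. It had 15294, 16897, 15151, 15544 and 16260 in Sema3b-/- arthritis libraries, against 10326, 9034, 9747 and 11049 in Sema3b-/- controls. No control reached the lowest arthritis library of either genotype. Its log2 fold change was 0.76 ± 0.09 in WT (adjusted p = 0.000439) and 0.66 ± 0.09 in Sema3b-/- mice (adjusted p = 0.000559).

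Rps6, the subunit protein that S6 kinases phosphorylate below mTOR, averaged 22783 ± 1805 normalized counts in WT arthritis libraries and 16463 ± 600 in WT controls. In Sema3b-/- mice Rps6 averaged 22915 ± 2042 with arthritis and 16988 ± 2282 in controls. Its log2 fold change was 0.47 in WT (adjusted p = 0.0191) and 0.44 in Sema3b-/- mice (adjusted p = 0.0127), with no overlap in either genotype. Rpsa, which also serves as a laminin receptor, and Rps3a1 rose in both genotypes as well, by 0.46 and 0.42 in WT and by 0.45 and 0.38 in Sema3b-/- mice. For both, Sema3b-/- control replicate 4 reached into the arthritis range, at 18588 for Rpsa and 22296 for Rps3a1. With 1 library left out, the WT call was lost without WT control replicate 1, 3 or 4 or WT arthritis replicate 4 or 5 for Rps6, Rpsa and Rps3a1 (adjusted p up to 0.0716, 0.116 and 0.0977). For Rpsa and Rps3a1 it was also lost without WT control replicate 2, and for Rpsa without Sema3b-/- arthritis replicate 5. In Sema3b-/- mice the call was lost without control replicate 2 or 3 for both, without control replicate 1 or arthritis replicate 2 for Rpsa (up to 0.074), and without arthritis replicate 3 or 4 for Rps3a1 (up to 0.0825). Rps3a1 had the highest mean of all members, 22258 normalized counts, and Rpl5, Rps6 and Rpsa were also among the highest. As each RNA is counted from its 3' end, these counts need no length scaling, but they depend on how well the tag of a gene maps.

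Rps2, which lies by the mRNA entry channel, rose by 0.53 in WT (adjusted p = 0.0279) and by 0.42 in Sema3b-/- mice (adjusted p = 0.0376). The Rps2 calls were lost in 6 fits of each genotype with 1 library left out (adjusted p up to 0.096 in WT and 0.102 in Sema3b-/- mice, both highest without control replicate 3). Rps25, which some viral mRNAs need to start translation, rose by 0.51 (adjusted p = 0.0235) and by 0.38 (adjusted p = 0.0427). The Rps25 call was lost in 5 of 18 such fits in WT (up to 0.0812) and in 11 of 18 in Sema3b-/- mice (up to 0.142), again highest without control replicate 3 of that genotype. WT control replicates 1, 3 and 4 and WT arthritis replicates 4 and 5 ended both WT calls, and WT control replicate 2 ended that of Rps2. In Sema3b-/- mice control replicates 2 and 3 and arthritis replicates 1 and 4 ended both, control replicate 1 and arthritis replicate 2 ended that of Rps2, and arthritis replicates 3 and 5, each WT control and WT arthritis replicate 5 ended that of Rps25.

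**Figure D3:**
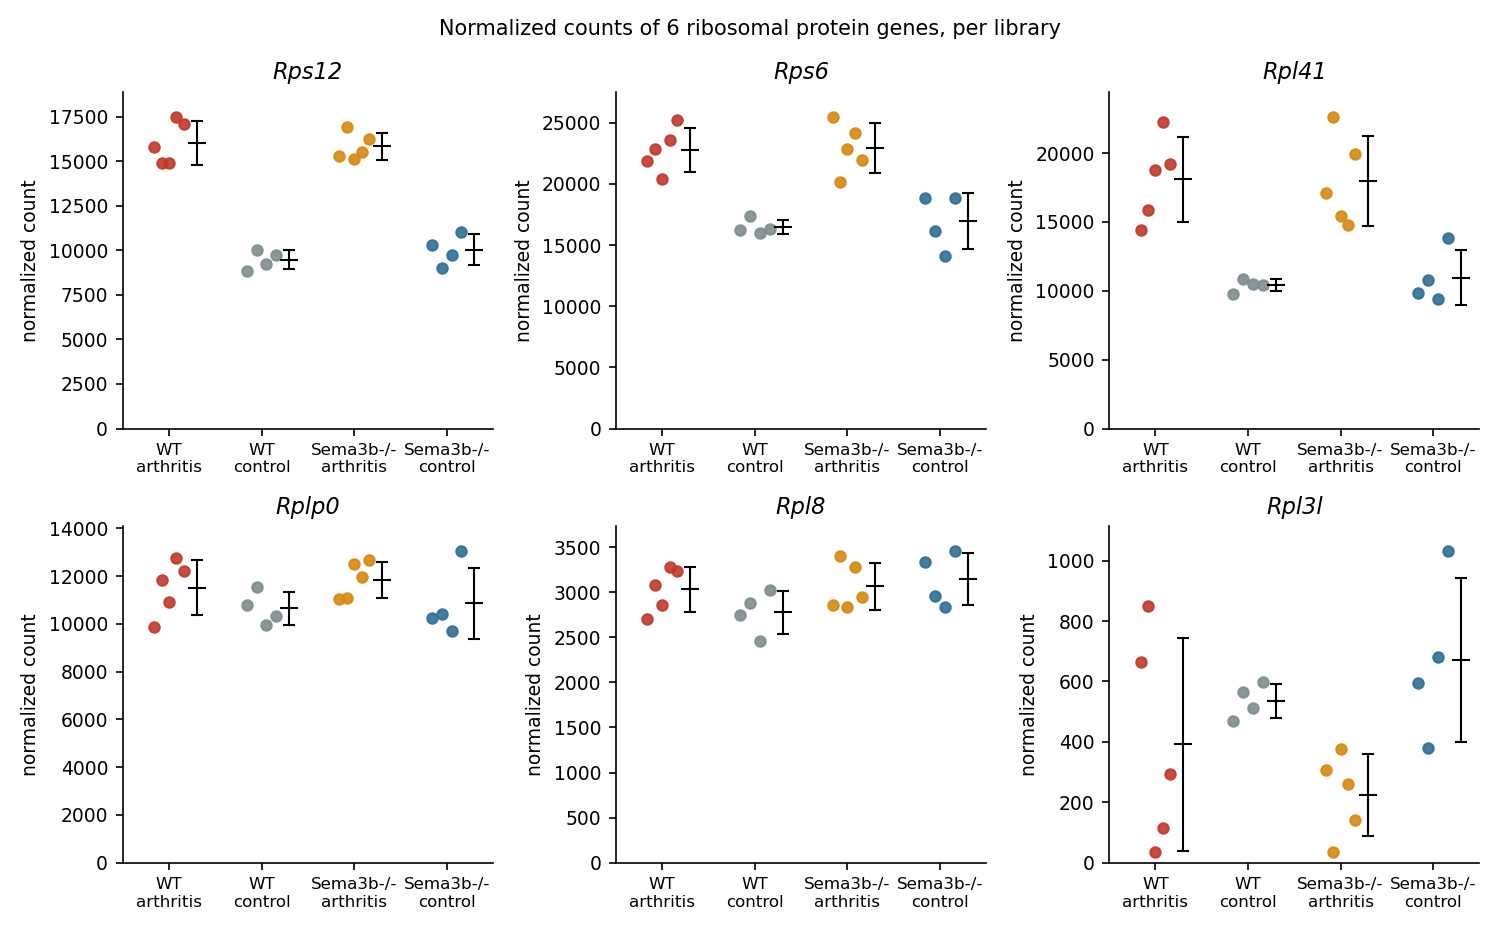
Normalized counts (vertical axes, from 0) of 6 members in each library, with the mean and SD of each group beside the points. Rps12, Rps6 and Rpl41 separate arthritis from control libraries in both genotypes, Rplp0 and Rpl8 overlap, and Rpl3l spreads from 36.8 to 851 within WT arthritis.

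Among the members of the 60S subunit, in which peptide bonds form, 28 of 48 were higher in WT arthritis. In Sema3b-/- arthritis 29 of 48 were higher, and the medians were 0.48 and 0.41. The shares of all tested genes called higher were 2.64% in WT and 6.84% in Sema3b-/- mice. Rpl41, a very short basic peptide at the face between the subunits, had 14404, 15840, 18759, 22273 and 19243 normalized counts in WT arthritis libraries, against 9806, 10875, 10531 and 10390 in WT controls. It had 17084, 22632, 15399, 14776 and 19952 in Sema3b-/- arthritis libraries, against 9808, 10814, 9402 and 13806 in Sema3b-/- controls. The groups did not overlap, although the arthritis libraries were widely spread. The log2 fold change of Rpl41 was 0.78 ± 0.15 in WT (adjusted p = 0.00898) and 0.71 ± 0.15 in Sema3b-/- mice (adjusted p = 0.00625). Both Rpl41 calls held with each library left out, but not under all 11 other settings.

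Rpl17 and Rpl39 line the tunnel through which the new peptide leaves the ribosome, and both were higher in every arthritis library than in any control. Rpl17 averaged 11774 ± 1199 normalized counts in WT arthritis libraries and 7003 ± 413 in WT controls, and 10385 ± 400 in Sema3b-/- arthritis libraries and 6950 ± 1288 in Sema3b-/- controls. Rpl39 averaged 16645 ± 2258 and 10138 ± 1112 in WT arthritis and WT control libraries, and 13780 ± 1009 and 9500 ± 1978 in Sema3b-/- arthritis and Sema3b-/- control libraries. Rpl17 rose by 0.75 in WT (adjusted p = 0.00359) and by 0.60 in Sema3b-/- mice (adjusted p = 0.00382). Rpl39 rose by 0.71 (adjusted p = 0.0101) and by 0.56 (adjusted p = 0.0153), the last lost without Sema3b-/- control replicate 3 (adjusted p = 0.0551).

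Rpl37a, a zinc finger protein of the 60S subunit, was spread by single libraries. It had 11866, 8361, 7679, 17215 and 8384 normalized counts in Sema3b-/- arthritis libraries, against 6324, 4899, 5246 and 5963 in Sema3b-/- controls. In WT it had 7672, 8038, 6877, 7388 and 9129 with arthritis, against 5675, 6303, 4736 and 5567 in controls. No arthritis library overlapped a control, and Sema3b-/- arthritis replicates 1 and 4 stood above the rest. The log2 fold change was 0.87 ± 0.19 in Sema3b-/- mice (adjusted p = 0.00709) and 0.49 ± 0.19 in WT (adjusted p = 0.141), and without Sema3b-/- arthritis replicate 4 the value in Sema3b-/- mice was 0.68. Rpl36a rose in both genotypes, by 0.68 in Sema3b-/- mice (adjusted p = 0.00163) and by 0.50 in WT (adjusted p = 0.0213), the WT call being lost without WT control replicate 1 or 3 or WT arthritis replicate 4 or 5 (adjusted p up to 0.08).

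The particle of Rpl5, Rpl11 and 5S ribosomal RNA joins the large subunit, and outside ribosomes it binds the p53 regulator Mdm2. Rpl5 averaged 25349 ± 2029 normalized counts in WT arthritis libraries and 18569 ± 1194 in WT controls, and 24293 ± 1824 and 17031 ± 2882 in Sema3b-/- arthritis and Sema3b-/- control libraries. It passed the test in both genotypes, at 0.45 in WT (adjusted p = 0.0285) and 0.52 in Sema3b-/- mice (adjusted p = 0.00606). The WT call of Rpl5 was lost without any one WT control or without WT arthritis replicate 4 or 5 (adjusted p up to 0.0981). Rpl11 passed for the mean of both genotypes alone, at 0.39 (adjusted p = 0.00536).

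The 3 proteins of the stalk that recruits translation factors did not move together. Rplp1 averaged 17483 ± 1707 normalized counts in WT arthritis libraries and 12525 ± 858 in WT controls, and rose by 0.48 (adjusted p = 0.0112). In Sema3b-/- mice Rplp1 averaged 18158 ± 913 with arthritis and 13038 ± 1201 in controls, and also rose by 0.48 (adjusted p = 0.0046). Rplp0, the base of the stalk and a gene often used to scale qPCR, had 9890, 11827, 10900, 12775 and 12202 in WT arthritis libraries, against 10795, 11547, 9949 and 10324 in WT controls. It had 11036, 11086, 12498, 11964 and 12654 in Sema3b-/- arthritis libraries, against 10253, 10420, 9705 and 13043 in Sema3b-/- controls. The Rplp0 groups overlapped in both genotypes, at log2 fold changes of 0.11 ± 0.10 (adjusted p = 0.567) and 0.13 ± 0.10 (adjusted p = 0.423). Rplp2 had 4.75 to 16.2 normalized counts in any library, too few to read a change.

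Rpl8, which lies next to the site of peptide bond formation, was likewise not separated. It had 2698, 3085, 2857, 3281 and 3234 normalized counts in WT arthritis libraries, against 2751, 2878, 2465 and 3021 in WT controls. It had 2854, 3406, 2835, 3279 and 2952 in Sema3b-/- arthritis libraries, against 3330, 2963, 2840 and 3455 in Sema3b-/- controls. All groups overlapped, with log2 fold changes of 0.13 ± 0.10 in WT and -0.04 ± 0.10 in Sema3b-/- mice. Rpl4, Rpl21 and Rpl29, named after their values were seen, are the other members with a mean of at least 500 that missed the threshold for the mean of both genotypes, at 0.22, 0.23 and 0.23. So 64 of the 69 members at this level passed, against 3 of 11 below it (among them Rpl7l1, and Rpl31, also named after its values were seen). The share of all tested genes called higher in that comparison was 12.6%.

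Several members with core roles had few counts. Rplp2, Rpl37, Rpl30, Rpl34 and Rps15a had means of 8.33 to 21.5 normalized counts and Rps27 and Rpl26 fewer, although they encode core ribosomal proteins. Which near-identical copies or pseudogenes the reads of such genes were given to was not tested, so their values are uncertain, and the same holds for any member with close copies. None of these low members passed the test in either genotype. Rps15a had a log2 fold change of -0.05 in WT and 0.75 in Sema3b-/- mice, Rpl30 0.32 and 0.72, Rpl34 0.30 and 0.78, and Rpl37 0.88 and 0.74, with SE of 0.28 to 0.48.

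Of the paralog-type members, Rps27l and Rpl7l1 passed the test for the mean of both genotypes. Rps27l, a paralog of Rps27 described as a p53 target, had 1303, 1352, 1521, 1933 and 1507 normalized counts in WT arthritis libraries, against 872, 955, 840 and 963 in WT controls. It had 1306, 1364, 1262, 1288 and 1831 in Sema3b-/- arthritis libraries, against 923, 1025, 756 and 1190 in Sema3b-/- controls. Every arthritis library was above every control, and Rps27l rose by 0.74 ± 0.15 in WT (adjusted p = 0.0111) and by 0.54 ± 0.15 in Sema3b-/- mice (adjusted p = 0.0238). Rpl7l1 rose by 0.35 in Sema3b-/- mice (adjusted p = 0.0388), and its partner Rpl7 by 0.52 in WT (adjusted p = 0.0243) and by 0.45 in Sema3b-/- mice (adjusted p = 0.0227). Rpl22 rose by 0.64 (adjusted p = 0.00634) and by 0.58 (adjusted p = 0.00418), while its paralog Rpl22l1 was not tested. Rpl10, which completes the large subunit, rose by 0.47 (adjusted p = 0.0129) and by 0.36 (adjusted p = 0.0214), and Rps4x, the X-linked form of Rps4, was at 0.30 (adjusted p = 0.146) and 0.29 (adjusted p = 0.105). With 1 library left out, the Sema3b-/- call was lost without control replicate 3 or arthritis replicate 5 for Rps27l, Rpl7l1, Rpl7 and Rpl10 (adjusted p up to 0.0862, 0.113, 0.079 and 0.0718). It was also lost without control replicate 1 for Rps27l, without control replicate 2 for Rpl7 and Rpl7l1, without arthritis replicate 2 for Rpl10 and Rpl7l1, and without arthritis replicate 1 or 4 for Rpl7l1. The WT call was lost without WT control replicate 3 for Rpl7 and Rpl10 (up to 0.0876 and 0.0601), and for Rpl7 also without WT control replicate 1 or 4 or WT arthritis replicate 4 or 5. Rpl39l, known from male germ cells, and Rps4y2 overlapped between all groups, at 8.09 to 143 and 64.7 to 183 normalized counts.

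Rpl3l, the form of Rpl3 used in skeletal and heart muscle, was called in neither genotype. It had 307, 37.0, 377, 261 and 141 normalized counts in Sema3b-/- arthritis libraries, against 595, 379, 683 and 1031 in Sema3b-/- controls, with no overlap. In WT it had 665, 851, 36.8, 114 and 295 with arthritis, against 471, 564, 512 and 598 in controls, and the arthritis libraries lay on both sides. The log2 fold change was -1.85 ± 0.82 in Sema3b-/- mice (adjusted p = 0.151) and -1.18 ± 0.82 in WT (adjusted p = 0.42), so neither passed the test. Rpl3 rose by 0.41 ± 0.10 in Sema3b-/- mice (adjusted p = 0.0132) and was at 0.34 ± 0.10 in WT (adjusted p = 0.0611).

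Markers of muscle moved with Rpl3l. The 16 muscle genes, none at 0 in all libraries, took 0.263 to 3.98% of counts in WT arthritis libraries and 2.70 to 3.41% in WT controls. They took 0.277 to 2.20% in Sema3b-/- arthritis libraries and 2.58 to 5.24% in Sema3b-/- controls. The lowest muscle shares of each genotype, in WT arthritis replicate 3 and Sema3b-/- arthritis replicate 2, were in the libraries with the lowest Rpl3l. The part of muscle content in the Rpl3l values was not tested, and in bulk tissue fewer cells of a type and less RNA per cell cannot be told apart.

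Other cell markers moved with arthritis too. Over all tested genes 12.6% were called higher and 10.9% lower for the mean of both genotypes. In that comparison 10 of 11 myeloid genes were higher, 5 of 16 muscle genes and 3 of 10 epidermal genes were lower, and 5 of 7 tested B cell genes were lower. Of the other lists, 1 of 5 tested erythroid genes and 1 of 8 fibroblast genes were lower, and 0 of 6 tested T and NK cell genes were called. Myeloid genes took 0.0814 to 0.580% of counts in WT arthritis libraries and 0.103 to 0.139% in WT controls. They took 0.188 to 0.676% in Sema3b-/- arthritis libraries and 0.0840 to 0.351% in Sema3b-/- controls. WT arthritis replicate 1 had the lowest myeloid share of the arthritis libraries, 0.0814%, and also the highest mitochondrial share. In it 50 of the 69 members with a mean of at least 500 lay above every control, where arthritis libraries had 49 to 63. The part of myeloid cells in the ribosomal protein values was not tested, and 1 library cannot show it.

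Loss of Sema3b was not seen to change these genes. No member was called between Sema3b-/- and WT controls, against 0.0145% of all tested genes, or between Sema3b-/- and WT arthritis libraries, against 0.0217%. By limma 1 of 80 members in each comparison had an unadjusted p under 0.05, against 811 of 13809 tested genes in controls and 1239 in arthritis. The members were Rpl36a among controls, at -0.30 (limma adjusted p = 0.805), and Rpl37a in arthritis, at 0.39 (limma adjusted p = 0.521). In both comparisons edgeR and DESeq2 on the recovered reads also called 0 members. The median log2 fold change of Sema3b-/- over WT was -0.02 in controls and -0.08 in arthritis, where 59 of 80 members were below 0. In arthritis 4 of 5 WT libraries were male and 4 of 5 Sema3b-/- libraries female, so genotype and sex cannot be fully told apart there.

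The arthritis effect was also not shown to differ by genotype. In the test of the interaction 0 members were called, against 0% of all tested genes, by limma, edgeR and DESeq2. In limma 0 members had an unadjusted p under 0.05, against 663 of 13809 tested genes. For the 69 members with a mean of at least 500 the difference between the effects ran from -0.28 to 0.38, and the median limits of its 95% interval were -0.38 and 0.28. Differences of that size are therefore not excluded for a typical member. For Rps12 the difference was -0.10 with an interval of -0.36 to 0.17, and for Rpl37a 0.38 with -0.18 to 0.93. Rpl28, a 60S protein, was nearest to the threshold at -0.26 (limma adjusted p = 0.974), with an interval of -0.53 to 0.01. It averaged 5504 ± 480 in Sema3b-/- arthritis libraries and 4873 ± 204 in Sema3b-/- controls, and 5766 ± 489 in WT arthritis libraries and 4254 ± 195 in WT controls.

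Members kept much the same order in both genotypes, which share no libraries. Over the 69 members the log2 fold changes in WT and Sema3b-/- mice had a Pearson r of 0.76 and a Spearman rho of 0.75, given as a description because genes are not independent replicates and all members of a genotype come from the same libraries.

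**Figure D4:**
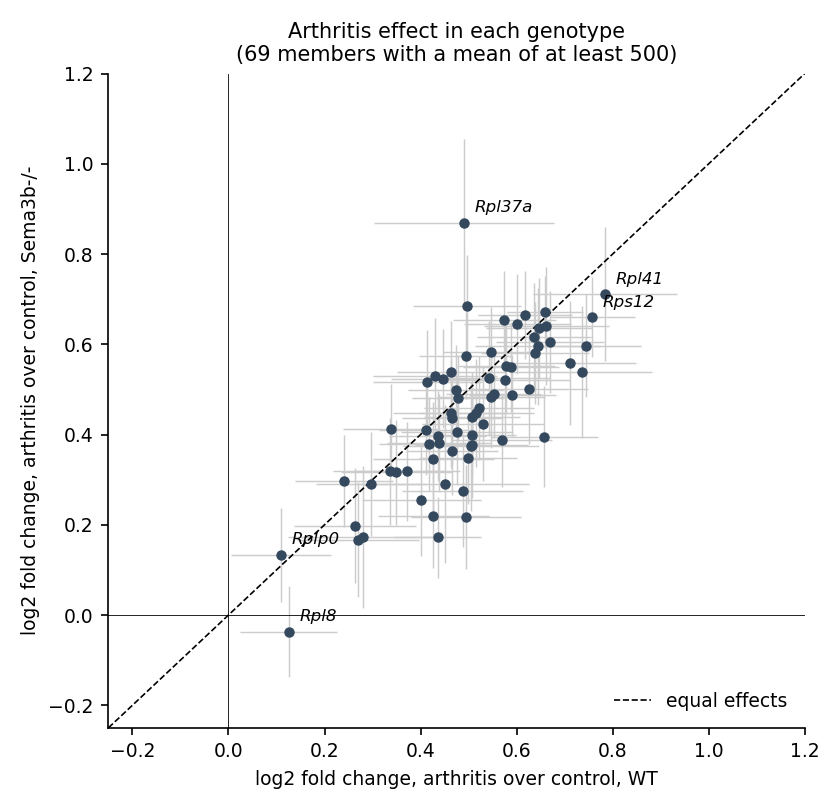
Log2 fold change of arthritis over control in WT (horizontal axis) and in Sema3b-/- mice (vertical axis) for the 69 members with a mean of at least 500, with SE. The dashed line marks equal effects. Rpl41 and Rps12 lie at the upper end, Rplp0 and Rpl8 at the lower end, and Rpl37a stands above the line (0.87 against 0.49).

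Single libraries differed in how far the members were raised. The median over the 69 members, as log2(value + 1) minus the mean of the 8 controls, was 0.35 to 0.64 in WT arthritis libraries and 0.35 to 0.48 in Sema3b-/- arthritis libraries. It was -0.05 to 0.10 in WT controls and -0.24 to 0.24 in Sema3b-/- controls. In each of the 10 arthritis libraries 67 or more of the 69 were above the control mean, and 49 to 63 were above every control. Sema3b-/- control replicates 3 and 4 went opposite ways, with 66 of 69 members below the control mean in replicate 3 and 68 of 69 above it in replicate 4. Fibroblast marker genes took 3.48, 10.3, 10.8 and 1.54% of counts in Sema3b-/- control replicates 1 to 4, and replicates 2 and 3 were male. The part of tissue make-up or sex in these library medians was not tested.

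**Figure D5:**
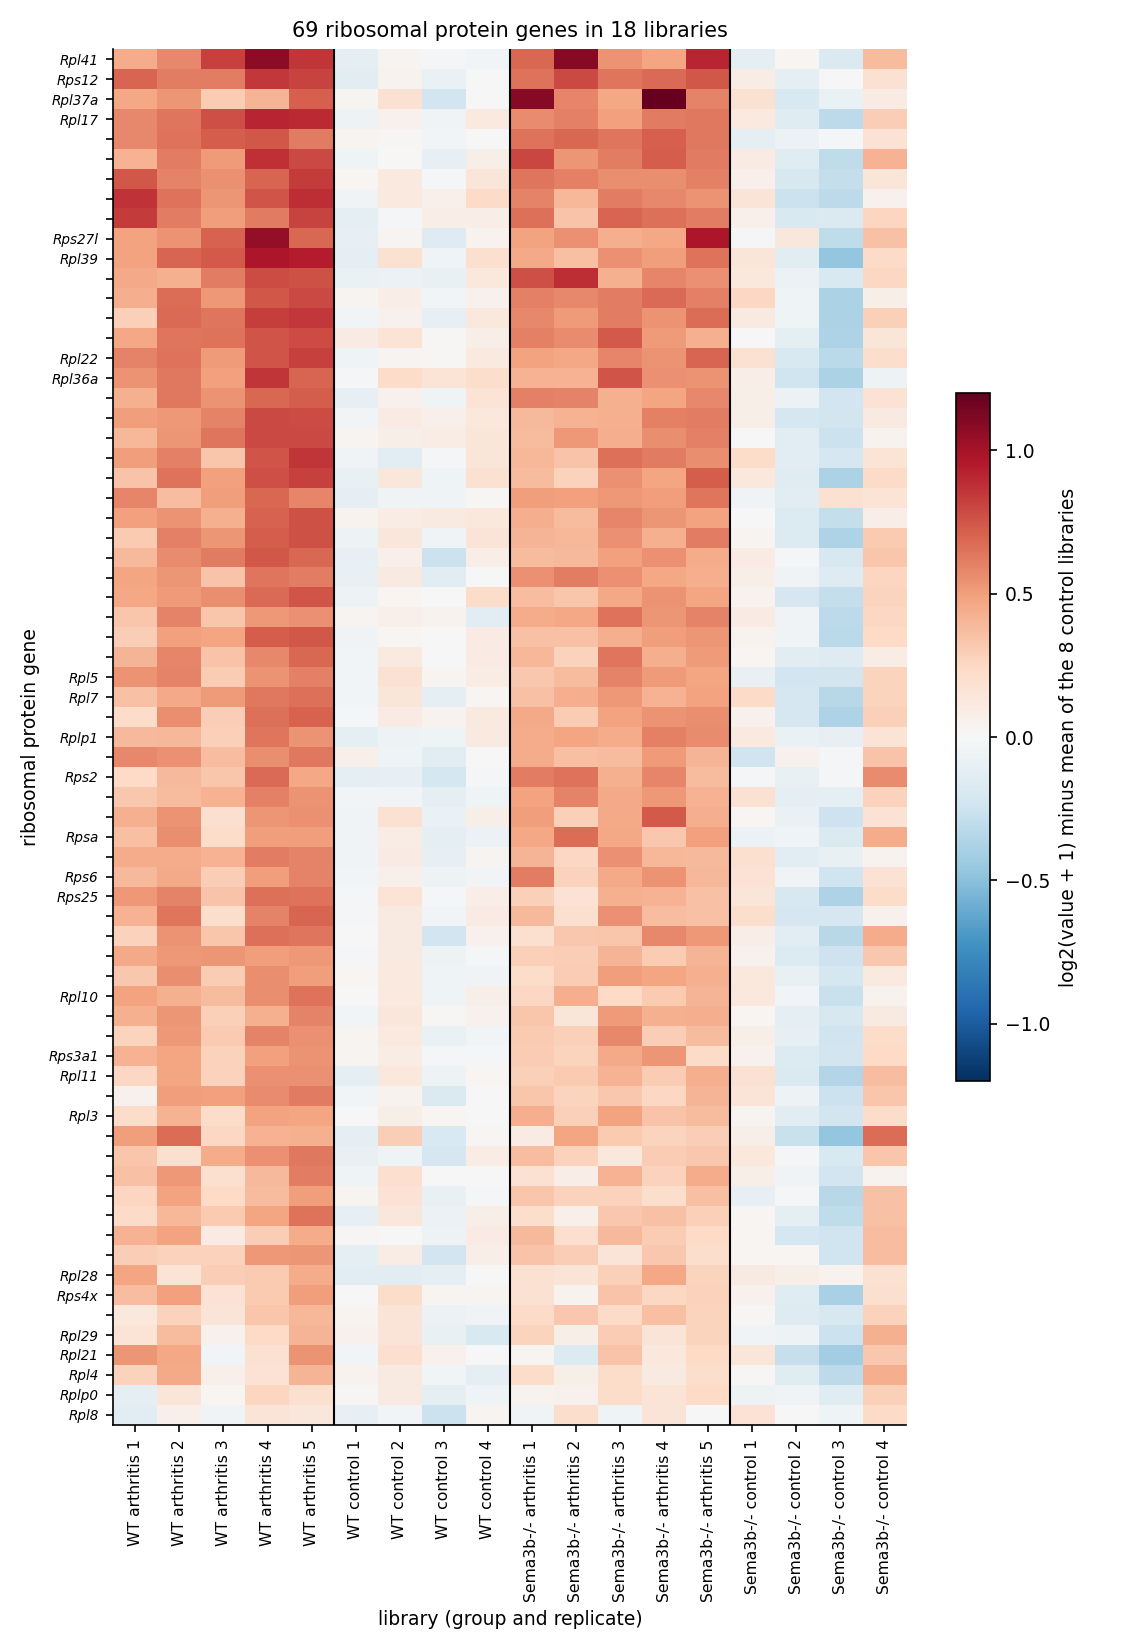
Log2(value + 1) of 69 members (rows, ranked by the mean arthritis effect, with labels for those described in the text) in each library (columns), minus the mean of the 8 control libraries, on a colour scale from -1.2 (blue) to 1.2 (red). The arthritis columns are red in nearly every row. Sema3b-/- control replicate 3 is blue in nearly every row and replicate 4 pale red.

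Shorter members showed somewhat larger changes for the mean of both genotypes. Over the same 69 members, coding length and the mean log2 fold change had a Pearson r of -0.43 and a Spearman rho of -0.40, as a description. The median log2 fold change was 0.55 for the 18 members with under 400 coding bases, 0.49 for the 28 with 400 to under 600, and 0.44 for the 23 with 600 or more. In the same order the medians were 0.506, 0.510 and 0.466 in WT, and 0.546, 0.435 and 0.388 in Sema3b-/- mice. So the stepwise order was seen in Sema3b-/- mice and not in WT, where Spearman rho was -0.30. Mean level showed no such relation (Spearman rho of -0.04). Of the 51 with a promoter entry, 39 held the pyrimidine run and had a median of 0.50 (0.22 to 0.75), and 12 without it had a median of 0.42 (0.12 to 0.62), with much overlap.

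Many genes outside the name rule that act with the ribosome were higher too. Of 6 listed ribosome components under other names 4 were tested, and all 4 passed for the mean of both genotypes, with a median of 0.40, where 12.6% of all tested genes were called higher. Fau, whose product is cut to give a 40S protein, rose by 0.55 (adjusted p = 5.93e-05), and Gnb2l1, the scaffold protein Rack1, by 0.39 (adjusted p = 0.00207). Of 19 tested translation factors and other genes with TOP tracts 13 were called higher and none lower, with a median of 0.36 and 2 log2 fold changes below 0. They include Npm1, a nucleolar chaperone, at 0.72 (adjusted p = 5.86e-05), Eef1b2, an elongation factor subunit, at 0.63 (adjusted p = 0.000168), and Eif3k, an initiation factor subunit, at 0.51 (adjusted p = 0.000126).

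Of 27 tested genes that assemble ribosomes, 7 were higher and none lower for the mean of both genotypes, with a median of 0.12, against 12.6% of all tested genes called higher and 10.9% lower. They include Nip7, needed for ribosomal RNA processing, at 0.49 (adjusted p = 0.00868), Nop58, a core protein of small nucleolar ribonucleoproteins, at 0.43 (adjusted p = 0.015), and Ncl, the nucleolar protein nucleolin, at 0.36 (adjusted p = 0.0107). The count of 7 was 4 without WT control replicate 3, without WT control replicate 4 or without Sema3b-/- control replicate 2. In WT alone 0 of the 27 were called, against 4.21% of all tested genes, with 16 log2 fold changes above 0 and 11 below. In Sema3b-/- mice 2 were higher and 0 lower, against 6.84% and 5.55% of all tested genes. Of 76 mitochondrial ribosomal protein genes 16 were higher and 1 lower for the mean of both genotypes, with a median of 0.17. They were led by Mrpl52 at 0.61 (adjusted p = 0.000309) and Mrpl33 at 0.55 (adjusted p = 0.00062). In WT alone 2 of the 76 were higher, against 2.64% of all tested genes, and in Sema3b-/- mice 6, against 6.84%. These differences between lists were not tested.

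Of 19 genes of the Myc and mTOR list 4 were higher and 4 lower for the mean of both genotypes, against 12.6% and 10.9% of all tested genes, or 23.5% in either direction. These 8 calls were 5 when any one of these libraries was left out: Sema3b-/- arthritis replicate 2, WT arthritis replicate 3 or 4, Sema3b-/- control replicate 1, or WT control replicate 2. Eif4ebp2, a repressor of the cap-binding protein eIF4E, fell by 1.43 (adjusted p = 0.000384). Its normalized counts were 48.8, 62.8, 126, 68.9 and 40.6 in WT arthritis libraries, against 178, 151, 196 and 119 in WT controls, and 31.3 to 76.4 in Sema3b-/- arthritis libraries, against 102 to 254 in Sema3b-/- controls. Tsc2, an inhibitor of mTOR, fell by 0.62 (adjusted p = 0.00201). Larp1, which binds TOP tracts, fell by 0.38 (adjusted p = 0.00324), at 711 ± 82.6 in WT arthritis libraries and 867 ± 27.4 in WT controls, and 785 ± 67.7 in Sema3b-/- arthritis libraries and 1097 ± 166 in Sema3b-/- controls. These genes have the lowest p of the list, and the 4 called higher are not named here. In WT alone 0 were higher and 1 lower, against 2.64% and 1.58% of all tested genes. That gene was Eif4ebp2, whose WT call was lost in 5 fits with 1 library left out (limma adjusted p up to 0.11). Tsc2 and Larp1 were not called in WT. In Sema3b-/- mice 0 were higher and 4 lower, against 6.84% and 5.55% of all tested genes.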

How the data were processed

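Per the labels' protocols, forepaw RNA was barcoded and pooled by CEL-seq and sequenced with paired ends. BWA, the mm10 build and DESeq2 1.32 are named in the submitters' processing notes. How reads were counted, on which annotation and with or without molecular barcodes was not given in the sources used here. A table deposited by the authors holds, as a signal, counts divided by a size factor per library. Whole reads were recovered for 100% of values within 0.02 of a read. The authors' deposited log2 fold changes, p-values and scores were used for counts of their calls and ranks alone. Each column was matched to a sample by the animal number in its title. The title of Sema3b-/- control replicate 4 repeats the inner number 3, so its replicate number is a name alone.

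The design took limma-trend (limma 3.58.1, R 4.3.3) with robust empirical Bayes on log2(value + 1) in one model of 4 group means over 18 libraries, limited to genes reaching a value of 10 in 4 or more libraries, and 6 comparisons with Benjamini-Hochberg adjustment over 13809 genes. The threshold for a call was an adjusted p of 0.05. Levels carry SD, and log2 fold changes carry SE. The members and the gene lists were chosen with earlier results of these data known. Named members are the 4 highest and 4 lowest log2 fold changes in each comparison, the 5 with the highest mean, the paralog-type members with their partners, and all called members where 10 or fewer were called; from each other list the 3 lowest p, and 2 mitochondrial ribosomal protein genes, are named, except that some of these genes are not reported here. edgeR 4.0.16, DESeq2 1.42.0, other scalings, filters, covariates and libraries left out were tried as alternatives. The limma step was tested on simulated data.

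The 32 pairs of libraries within groups were not repeats of one library: their chi-square divided by its degrees of freedom was 9.59 to 197. Where no read was seen, up to 3 reads, or at most 12.1 normalized counts, remain possible. This limit covers sampling error of reads only. The intervals also take in the spread between libraries within groups, and neither covers a bias between groups. Coordinates are 1-based on GRCm38 from RefSeq, and all 84 members matched its gene table.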

Additional observations from a re-analysis of the deposited data

Results flagged for a closer look

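In 4 of 84 groups of 4 or 5 libraries, over 20 genes and the shares of counts, 1 library stood far from the rest of its group (chance gives about 1 in 20). Rpl5 was at 21848 normalized counts in WT arthritis replicate 3, below the group median of 25765. Rps4x was at 13613 in WT control replicate 2, above the group median of 11975. Rps27l was at 1831 in Sema3b-/- arthritis replicate 5, above the group median of 1306. Rpsa was at 18588 in Sema3b-/- control replicate 4, above the group median of 13075, in the library where 68 of 69 members lay above the control mean.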

How the results depend on the processing

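The median log2 fold change of the tested members in arthritis was above 0 in every alternative run, and with each library left out in turn it was 0.45 to 0.52 (WT), 0.38 to 0.54 (Sema3b-/-) and 0.44 to 0.53 (both). The uncalled median of Sema3b-/- over WT was -0.11 to 0.05 in controls, and that of the interaction -0.12 to 0.04, in the same fits. Called in every leave-one-out fit were 26 of 53 members in WT, 33 of 54 in Sema3b-/- mice and 66 of 67 for the mean, and in the other settings as well 21, 25 and 62. Of the members named above, the WT calls of Rpl41, Rpl39, Rplp1 and Rps27l held in all leave-one-out fits but not in every other setting. The same was true of the Sema3b-/- calls of Rpl41, Rps6 and Rpl3. Leaving out 1 library gave 26 to 62 members called in WT and 33 to 62 in Sema3b-/- mice, 4 to 7 ribosome assembly genes and 5 to 9 Myc and mTOR genes called. The WT count was 31 under CPM without mitochondrial transcripts, 27 with sex as a term, and 25 with Joint libraries alone; the Sema3b-/- count was 32 with compared groups only and 30 with Joint libraries alone. Ribosome assembly calls were 4 with Joint libraries alone, and Myc and mTOR calls 5 with sex and 4 with Joint libraries alone. CPM without mitochondrial transcripts moved the median of all tested genes to -0.12 (WT arthritis), 0.10 (Sema3b-/- arthritis), -0.15 (genotype in controls) and 0.22 (interaction). The members' medians there were 0.39, 0.58, -0.17 and 0.17, so relative to all genes the members kept their arthritis difference. Shares without mitochondrial transcripts averaged 12.6% and 9.58% in WT arthritis and WT control libraries, and 12.6% and 8.55% in Sema3b-/- arthritis and Sema3b-/- control libraries.

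Replicate numbers did not pair libraries (correlation of deviations -0.658 to 0.414 over 25 same-number pairs; 3 of 18 libraries were closest to their own number). With the number as a block, 33 members were called in WT, 45 in Sema3b-/- mice and 65 for the mean, and 3 ribosome assembly genes and 4 Myc and mTOR genes.

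Signs turned for uncalled, mostly low members. Rps15a in WT was at 0.014 in edgeR, 0.018 in DESeq2, 0.27 with sex, 0.0071 with the block, and -0.22 to 0.15 with 1 library left out. With sex as a term Rps4y2 in WT was at -0.18 and Rpl39l at -0.0033. Rpl8 in Sema3b-/- mice was at 0.084 under CPM without mitochondrial transcripts and -0.085 to 0.0091 with 1 library left out, Rps4y2 at -0.089 to 0.28, and Rplp2 for the mean of both genotypes at -0.10 to 0.085. The cause was not tested. The values of Rplp2, Rpl37, Rpl30, Rpl34 and Rps15a rest on few reads, so sampling error is wide for them.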
